A study of Mus musculus with 79 samples.

Results

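The circadian clock genes Arntl (also called Bmal1), Clock, Npas2, Per1, Per2, Per3, Cry1, Nr1d1, Dbp and Tef were followed across lungs exposed to cigarette smoke or to room air. They were chosen by name, through the transcript identifiers of the table, and each of the 10 matched exactly 1 row among the 31350 rows. The lungs came from male and female C57BL/6J mice aged 5 to 7 weeks, either WT or littermates that overexpress Scnn1b from a transgene active in airway epithelium (called βENaC, a model of chronic bronchitis). Smoke-exposed mice received the smoke of 6 cigarettes per day for 1 day or for 5 days, sham-exposed mice spent the same time in room air in the chamber, and the right lung of each mouse was taken 4 hours after the last exposure. The animals were kept under a light/dark cycle, and the clock time of harvest was not given in the sources used here. Nor was it given whether mice that differ in exposure, duration, genotype or sex, or mice of the same group, were taken at the same hour. For these genes, differences by exposure, duration, genotype or sex therefore cannot be told apart from differences by hour of harvest. The same holds for differences between mice of a group. The 79 mice formed 16 groups of 4 to 6 by genotype, exposure, sex and duration, with 20 sham-exposed and 20 smoke-exposed mice at 1 day and 20 sham-exposed and 19 smoke-exposed mice at 5 days. Each mouse was measured on 1 array.

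In the mammalian clock, ARNTL pairs with CLOCK or with its paralog NPAS2, and the pair binds E-box elements and drives transcription of the Per and Cry genes. PER and CRY proteins return to the nucleus and repress that pair, while NR1D1 represses Arntl through ROR elements, and DBP and TEF, a pair of PAR bZIP factors, carry the rhythm to output genes through D-box elements. In the lung, as in other tissues, Arntl and Npas2 peak at about the opposite time of day from Dbp and Per3.

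The RefSeq promoter table (GRCm38.p6) held 14 windows of 300 bases, from 250 before to 50 after an annotated start, for 9 of the 10 genes. Both strands were searched for the E-box CACGTG, the ROR element TAGGTCA or TGGGTCA, the D-box core TTATGTA or TTACGTA and the CRE core TGACGTC. The E-box was present in windows of Per1, Cry1 and Tef, and in 7.15% of all 32851 windows of the table. The D-box core was present in the Per3 window at positions -205 and -158 from the start, and in 3.09% of all windows. The ROR element was present in 1 Arntl window and in 6.45% of all windows, and the CRE core in the second Per1 window and in 3.21% of all windows. The windows of Clock, Npas2, Nr1d1 and Dbp held none of these letters. The 250 bases before the start are shown 5′ to 3′ for the genes whose smoke response is described next and that held a motif, and for Per1, with the E-box or the D-box core in capitals. A match describes the letters and does not show that a factor binds there. For Arntl, a stretch of 30 bases around the ROR element, whose first base lies at position 31 after the start, is shown with the element in capitals.
Cry1, chr10:85185055-85185304, minus strand: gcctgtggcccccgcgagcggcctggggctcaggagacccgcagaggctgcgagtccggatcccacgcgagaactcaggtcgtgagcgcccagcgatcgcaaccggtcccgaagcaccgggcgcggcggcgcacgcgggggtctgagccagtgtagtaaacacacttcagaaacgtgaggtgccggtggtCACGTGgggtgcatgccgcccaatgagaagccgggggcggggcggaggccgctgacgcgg
Per3, chr4:151044666-151044915, minus strand: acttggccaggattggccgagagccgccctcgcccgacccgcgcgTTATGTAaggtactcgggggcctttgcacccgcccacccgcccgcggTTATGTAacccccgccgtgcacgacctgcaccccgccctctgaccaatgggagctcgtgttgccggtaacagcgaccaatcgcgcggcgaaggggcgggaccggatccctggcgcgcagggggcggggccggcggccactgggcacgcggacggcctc
Tef, chr15:81811164-81811413, plus strand: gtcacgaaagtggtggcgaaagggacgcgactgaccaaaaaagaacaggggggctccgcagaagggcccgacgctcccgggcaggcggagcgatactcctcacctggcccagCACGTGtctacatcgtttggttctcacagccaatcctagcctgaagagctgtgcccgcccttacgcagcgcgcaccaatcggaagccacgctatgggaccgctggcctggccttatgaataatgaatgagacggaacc
Per1, chr11:69098699-69098948, plus strand: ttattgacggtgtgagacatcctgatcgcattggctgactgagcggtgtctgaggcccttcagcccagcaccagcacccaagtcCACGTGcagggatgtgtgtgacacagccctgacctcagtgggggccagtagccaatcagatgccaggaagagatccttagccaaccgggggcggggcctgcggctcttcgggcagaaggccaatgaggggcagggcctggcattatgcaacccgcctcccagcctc
Arntl, chr7:113207530-113207559, plus strand: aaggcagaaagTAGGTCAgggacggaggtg

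Values are the deposited log2 intensities, and differences between groups are given on the same log2 scale. A limma model of genotype, sex and exposure was fitted to every row at each duration, and a gene was said to rise or fall where the p-value adjusted by Benjamini-Hochberg over all rows was below 0.05. The lungs were bulk tissue, so fewer cells of a type and less RNA per cell cannot be told apart.

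After 5 days of smoke, 3 of the 4 Per and Cry genes rose, while Nr1d1, the repressor of Arntl, and 1 of the 3 activator genes fell. Cry1, Per2, Per3 and Tef rose, Nr1d1 and Npas2 fell, and Arntl, Clock, Per1 and Dbp did not pass. After 1 day, Cry1, Per2 and Clock rose and none of the 10 genes fell. The counts were 3 higher and 0 lower at 1 day, against 5.03% and 4.43% of all rows, and 4 higher and 2 lower at 5 days, against 3.17% and 3.37% of all rows. With a fold change over 1.3 also required, 1 of the 10 genes passed at 1 day (1.08% of all rows) and 4 at 5 days (1.16% of all rows). The median size of the exposure coefficient over the 10 genes was 0.09 at 1 day and 0.35 at 5 days, against 0.05 over all rows at each duration.

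**Figure D1:**
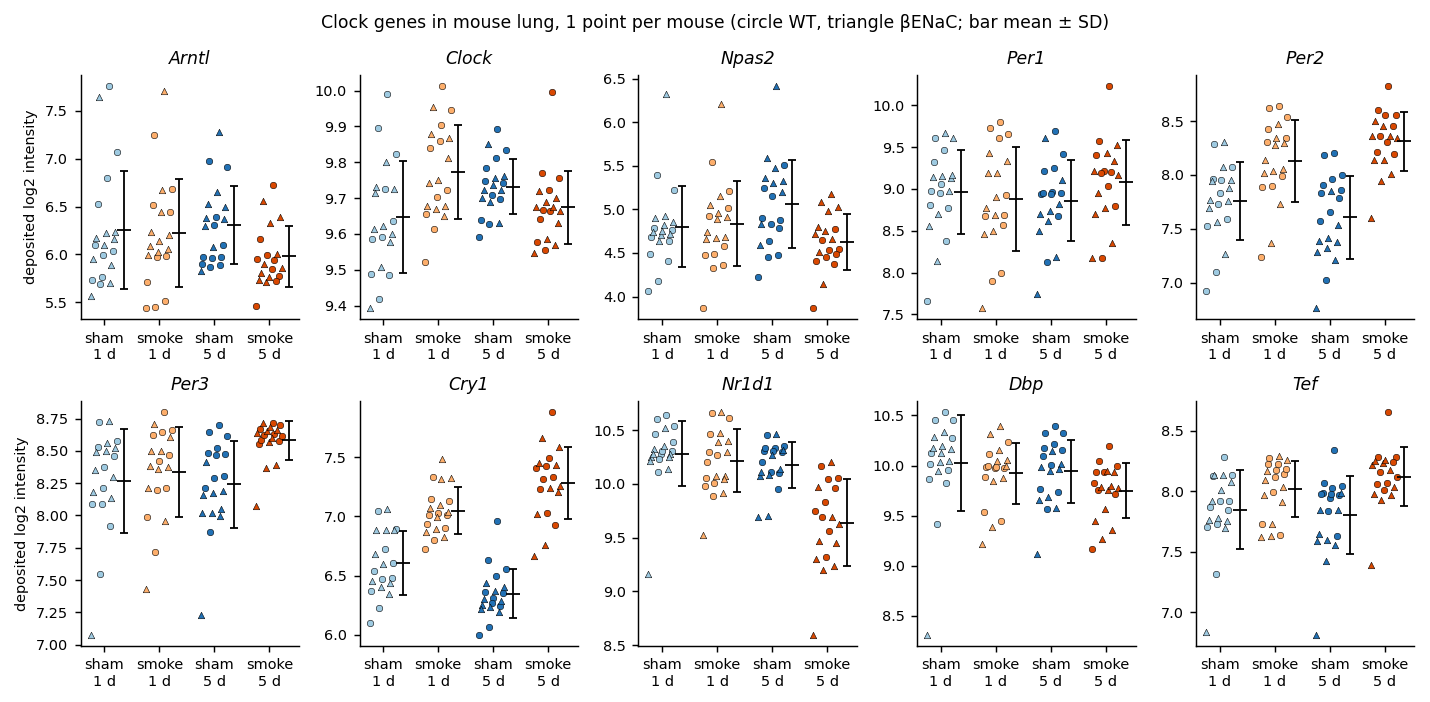
Deposited log2 intensity (y axis, a scale per gene) of the 10 clock genes by exposure and duration (x axis), with 1 point per mouse (circles WT, triangles βENaC) and bars for mean ± SD (n = 20, 20, 20 and 19). At 5 days, 16 of the 19 smoke-exposed mice lay above the highest sham-exposed mouse for Cry1, and 10 of the 19 lay below the lowest sham-exposed mouse for Nr1d1.

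Cry1 (NM_007771, chr10:85131700-85185054), which encodes a cryptochrome that represses the ARNTL and CLOCK pair, had the largest response of the 10 genes at both durations. At 1 day its lowest, median and highest log2 intensities were 6.10, 6.57 and 7.06 in sham-exposed mice and 6.73, 7.02 and 7.49 in smoke-exposed mice. All 20 smoke-exposed mice lay above the sham median, 8 of them above the highest sham-exposed mouse, and the groups overlapped. The coefficient was 0.44 (SE 0.07, adjusted p = 4.73e-05, limma), a 1.36-fold increase. At 5 days the lowest, median and highest values were 6.00, 6.31 and 6.97 in sham-exposed mice and 6.67, 7.32 and 7.88 in smoke-exposed mice. Of the 19 smoke-exposed mice, 16 lay above every sham-exposed mouse and 3 did not. The coefficient was 0.95 (SE 0.07, adjusted p = 7.77e-12, limma), a 1.93-fold increase.

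Within each genotype and sex, smoke-exposed mice had the higher mean Cry1 in 4 of 4 comparisons at each duration. The differences ran from 0.30 to 0.55 after 1 day and from 0.74 to 1.12 after 5 days, with the largest in βENaC males at 5 days (1.12, SE 0.10, n = 5 against 5). In order, the mean levels were 6.35 ± 0.21 (SD, n = 20) with sham at 5 days, 6.605 ± 0.27 (SD, n = 20) with sham at 1 day, 7.05 ± 0.20 (SD, n = 20) with smoke at 1 day and 7.28 ± 0.30 (SD, n = 19) with smoke at 5 days. The lower 2 of these and the upper 2 differed from each other by less than the larger SD of the pair.

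Cry1 was the only one of the 10 genes whose exposure effect differed between durations in limma's fit over all rows, with an exposure by duration coefficient of 0.49 (SE 0.11, adjusted p = 0.0180). This fit held exposure, duration and their product, without genotype and sex. Of all rows, 0.612% passed this test. In 1 fit over all mice that also held genotype and sex, Nr1d1 and Clock passed as well, as they did with array weights. Without the 4 mice that stand apart, Clock passed as well (-0.20, adjusted p = 0.0339, limma). A second gene passed without any 1 of 3 mice, Clock (-0.20) without WT sham male 1 day replicate 1 or WT smoke female 5 day replicate 2, and Nr1d1 (-0.51) without βENaC smoke female 1 day replicate 5. From 1 to 5 days Cry1 changed by -0.26 in sham-exposed mice (SE 0.08, adjusted p = 0.150, limma) and by 0.24 in smoke-exposed mice (SE 0.08, adjusted p = 0.0580, limma). Neither of these changes passed on its own. Among sham-exposed mice, none of the 10 genes passed for duration (0 by limma, 3 at an unadjusted p below 0.05), and 0.0766% of all rows did.

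Per2 (NM_011066, chr1:91415977-91459351), which encodes a period repressor, also rose at both durations. At 1 day the lowest, median and highest values were 6.92, 7.80 and 8.31 in sham-exposed mice and 7.24, 8.21 and 8.64 in smoke-exposed mice, and 17 of 20 smoke-exposed mice lay above the sham median. The coefficient was 0.37 (SE 0.11, adjusted p = 0.0183, limma). After 5 days these were 6.76, 7.61 and 8.20 in sham-exposed mice and 7.60, 8.36 and 8.83 in smoke-exposed mice. In 13 of 19 smoke-exposed mice Per2 lay above every sham-exposed mouse, and the coefficient was 0.73 (SE 0.09, adjusted p = 2.39e-07, limma), a 1.66-fold increase. It was higher with smoke in all 4 genotype and sex combinations at 5 days, by 0.57 to 0.89.

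Per3 (NM_001289877, chr4:150997018-151044707), the remaining period gene whose window held the D-box core, rose at 5 days. Its lowest, median and highest values were then 7.23, 8.25 and 8.70 in sham-exposed mice and 8.07, 8.63 and 8.72 in smoke-exposed mice. The smoke-exposed mice overlapped the upper part of the sham range, and 18 of 19 lay above its median, with an SD of 0.15 against 0.34 with sham. The coefficient was 0.36 (SE 0.07, adjusted p = 0.00145, limma), and at 1 day it was 0.07 (SE 0.11, adjusted p = 0.777, limma).

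Per1 (NM_001159367, chr11:69095108-69109965) did not pass at either duration, with coefficients of -0.08 (SE 0.17, adjusted p = 0.838, limma) and 0.24 (SE 0.15, adjusted p = 0.427, limma). Its values spread widely, from 7.66 to 9.67 in sham-exposed mice and from 7.57 to 9.80 in smoke-exposed mice at 1 day. The 4 differences within genotype and sex at 1 day ran from -0.43 to 0.54.

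Nr1d1 (NM_145434, chr11:98767932-98775377), which encodes the heme-binding nuclear receptor REV-ERBα, fell at 5 days. The lowest, median and highest values were 9.69, 10.23 and 10.46 in sham-exposed mice and 8.60, 9.69 and 10.20 in smoke-exposed mice. All 19 smoke-exposed mice lay below the sham median, 10 of them below the lowest sham-exposed mouse. The coefficient was -0.53 (SE 0.09, adjusted p = 0.000111, limma), or 1.44-fold lower, and smoke-exposed means were lower in 4 of 4 genotype and sex combinations, by -0.35 in WT females to -0.77 in βENaC males. At 1 day the medians were 10.29 with sham and 10.23 with smoke, and the coefficient was -0.07 (SE 0.08, adjusted p = 0.709, limma).

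In a comparison added after the data were seen, Nr1d1 was the only one of the 10 genes to change between 1 and 5 days among smoke-exposed mice, with a coefficient of -0.57 (SE 0.11, adjusted p = 0.000410, limma), where 7.68% of all rows passed. In sham-exposed mice the same change was -0.11 (SE 0.08, adjusted p = 0.615, limma). The exposure by duration term compares these 2 changes in a model without genotype and sex. It was -0.47 for Nr1d1 (SE 0.14, adjusted p = 0.0807, limma) and did not pass. In 1 fit over all mice that also held genotype and sex it passed (-0.46, adjusted p = 0.0359, limma). It also passed with array weights (-0.48, adjusted p = 0.0353, limma).

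Of the activators, Npas2 (NM_008719, chr1:39193702-39363240) fell at 5 days. Its lowest, median and highest values were 4.22, 5.02 and 6.42 in sham-exposed mice and 3.87, 4.65 and 5.17 in smoke-exposed mice, and 17 of 19 smoke-exposed mice lay below the sham median. The coefficient was -0.46 (SE 0.12, adjusted p = 0.00905, limma). These levels lie close to the array medians of 4.44 to 4.55, and signal over background was not analysed here. At 1 day the Npas2 coefficient was 0.04 (SE 0.13, adjusted p = 0.918, limma).

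Arntl (NM_001243048, chr7:113178471-113314126), the shared partner of CLOCK and NPAS2, had a 5-day coefficient of -0.34 (SE 0.11, adjusted p = 0.0610, limma), which missed the threshold. Its lowest, median and highest values at 5 days were 5.83, 6.30 and 7.28 in sham-exposed mice and 5.46, 5.90 and 6.73 in smoke-exposed mice, and 7 of 19 smoke-exposed mice lay below every sham-exposed mouse. Without the 4 mice that stand apart, described with the whole-table checks, the coefficient was -0.36 and passed (adjusted p = 0.0143, limma). At 1 day it was -0.03 (SE 0.17, adjusted p = 0.948, limma), and 3 mice reached 7.64 to 7.76 while the medians were 6.10 with sham and 6.12 with smoke.

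Clock (NM_001289826, chr5:76209868-76305603) rose slightly at 1 day, by 0.13 (SE 0.04, adjusted p = 0.0416, limma), with medians of 9.62 in sham-exposed and 9.75 in smoke-exposed mice. That call was lost under quantile normalization (adjusted p = 0.0713), cyclic loess (adjusted p = 0.0681), the replicate block (adjusted p = 0.0518) and in 17 of the 40 fits that left out 1 mouse. At 5 days its coefficient was -0.05 (SE 0.03, adjusted p = 0.359, limma).

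Of the output factors, Tef (NM_017376, chr15:81802673-81826863) rose at 5 days and Dbp (NM_016974, chr7:45705100-45710203) did not pass, although both encode PAR bZIP proteins that recognise D-box elements. Tef values at 5 days were 6.81, 7.90 and 8.34 (lowest, median and highest) in sham-exposed mice and 7.39, 8.16 and 8.66 in smoke-exposed mice. The Tef coefficient was 0.34 (SE 0.08, adjusted p = 0.00485, limma), with 18 of 19 smoke-exposed mice above the sham median. The Dbp coefficient at 1 day was -0.11 (SE 0.12, adjusted p = 0.692, limma) and that for 5 days was -0.18 (SE 0.09, adjusted p = 0.274, limma), with medians at 5 days of 9.995 in sham-exposed and 9.79 in smoke-exposed mice.

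**Figure D2:**
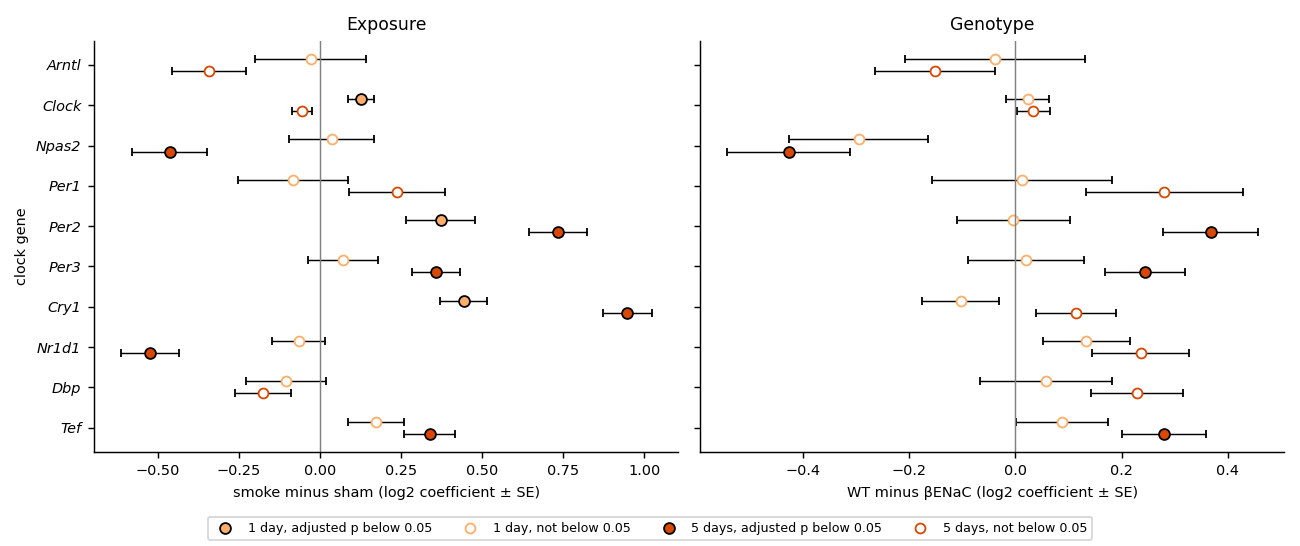
Log2 coefficients ± SE (x axis) of the 10 clock genes (y axis) for exposure (smoke minus sham, left) and genotype (WT minus βENaC, right), with filled points where the limma adjusted p was below 0.05. For exposure, 3 points were filled at 1 day and 6 at 5 days, and for genotype 0 and 4.

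**Figure D3:**
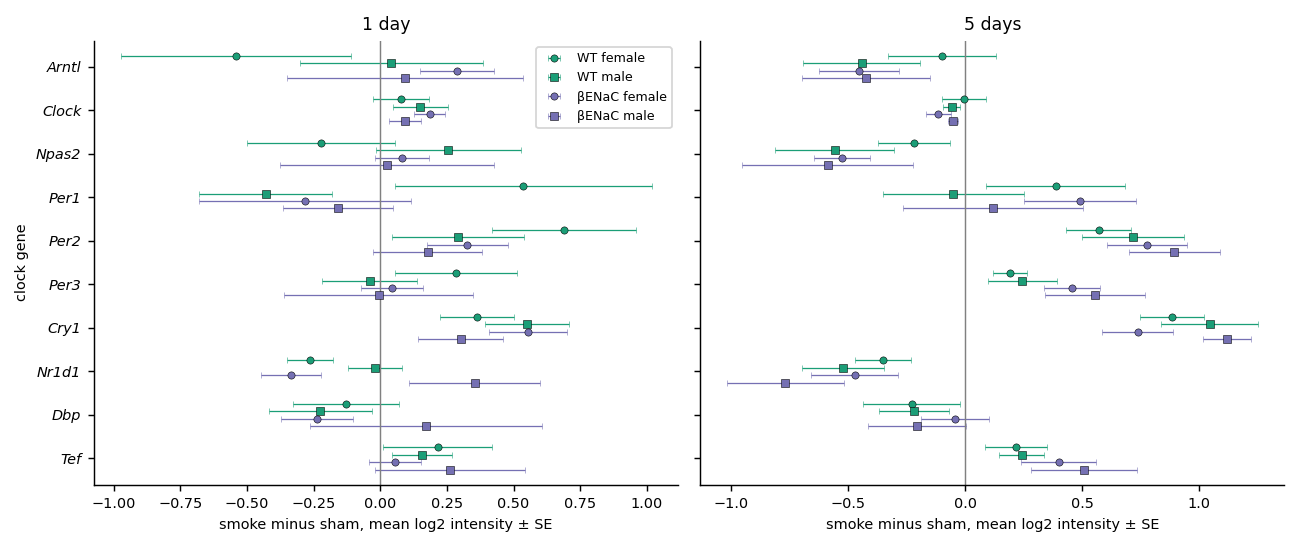
Smoke minus sham difference in mean log2 intensity ± SE (x axis) within each genotype and sex for the 10 clock genes (y axis), at 1 day (left) and 5 days (right), with 4 to 6 mice per exposure in each point. At 5 days, Cry1, Per2, Per3 and Tef were above 0 and Nr1d1, Npas2, Arntl, Clock and Dbp below 0 in 4 of 4 combinations.

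No difference in smoke response between genotypes or between sexes passed the test for any of the 10 genes. For exposure by genotype, 0 of the 10 genes passed at 1 day, where 0.00638% of all rows passed, and 0 at 5 days, where 0% of all rows passed (limma, 0 and 0 of the 10 at an unadjusted p below 0.05, and 0 by the ordinary linear model). For exposure by sex, 0 of the 10 passed at 1 day, against 0.00638% of all rows, and 0 at 5 days, against 0% (limma, 1 and 0 of the 10 at an unadjusted p below 0.05, and 0 by the ordinary linear model). The gene at an unadjusted p below 0.05 was Nr1d1 at 1 day, with an exposure by sex coefficient of 0.47 (SE 0.15, adjusted p = 0.592, limma). Its smoke minus sham differences at 1 day were -0.26 in WT females and -0.34 in βENaC females, against -0.02 in WT males and 0.35 in βENaC males.

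Between genotypes, none of the 10 genes passed at 1 day (0 by limma, 1 at an unadjusted p below 0.05, 0 by the ordinary linear model), where 5.87% of all rows did. At 5 days, Per2, Per3 and Tef were higher in WT mice and Npas2 lower, against 5.33% and 4.85% of all rows. Npas2 had lowest, median and highest values of 3.87, 4.59 and 5.51 in WT mice and 4.14, 5.02 and 6.42 in βENaC mice at 5 days, with a WT minus βENaC coefficient of -0.43 (SE 0.12, adjusted p = 0.0125, limma). For Per2 the values were 7.03, 8.19 and 8.83 in WT and 6.76, 7.85 and 8.50 in βENaC mice, and the coefficient was 0.37 (SE 0.09, adjusted p = 0.00453, limma). The groups overlapped for both genes. The coefficients of Tef and Per3 were 0.28 (SE 0.08, adjusted p = 0.0169, limma) and 0.24 (SE 0.07, adjusted p = 0.0285, limma). At 5 days both club cell markers and 2 of 3 red cell markers were also higher in WT mice, 1 of 2 endothelial markers was higher, and 1 alveolar type 2 and 1 plasma cell marker were lower, and their part in these results was not tested. The Per3 call was lost without the mice that stand apart (coefficient 0.18, adjusted p = 0.0501). Dbp passed with array weights (0.25, adjusted p = 0.0346, limma) and without WT smoke female 5 day replicate 2 (0.27, adjusted p = 0.0242, limma). Nr1d1 passed without βENaC smoke female 5 day replicate 2 (0.27, adjusted p = 0.0364, limma) or βENaC sham male 5 day replicate 4 (0.26, adjusted p = 0.0475, limma).

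Taking genotype and exposure together at 5 days, mean Per2 was 7.35 ± 0.29 (SD, n = 9) in sham-exposed βENaC mice, 7.82 ± 0.33 (SD, n = 11) in sham-exposed WT mice, 8.19 ± 0.28 (SD, n = 10) in smoke-exposed βENaC mice and 8.45 ± 0.21 (SD, n = 9) in smoke-exposed WT mice. Only the last step of this order was within the larger SD of its 2 groups. For Npas2 the order ran the other way, from 5.34 ± 0.51 (SD, n = 9) in sham-exposed βENaC mice through 4.83 ± 0.38 (SD, n = 11) in sham-exposed WT and 4.79 ± 0.31 (SD, n = 10) in smoke-exposed βENaC mice to 4.46 ± 0.25 (SD, n = 9) in smoke-exposed WT mice. The 2 middle groups of Npas2 did not differ beyond their spread.

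Between the sexes, Clock was higher in males at 1 day, with medians of 9.63 in females and 9.78 in males and a male minus female coefficient of 0.14 (SE 0.04, adjusted p = 0.0232, limma). It was the 1 gene of the 10 that passed, against 9.89% of all rows, so this count is near the background. At 5 days 0 passed (0 by limma, 1 at an unadjusted p below 0.05), against 0.616% of all rows. The Clock call was lost under quantile normalization (adjusted p = 0.112) and cyclic loess (adjusted p = 0.0844). Under these, Per2 passed instead, at -0.33 each (adjusted p = 0.0428 and 0.0419, limma). In 1 fit over all mice, Arntl (0.44), Per2 (-0.29) and Per3 (-0.27) passed along with Clock. For Nr1d1 the 1-day coefficient was 0.24 (SE 0.08, adjusted p = 0.0509, limma). Leaving out single mice moved the count of genes that passed for sex at 1 day. Without WT sham female 1 day replicate 3, whose Arntl of 7.76 was the highest of all mice, 5 genes passed at 1 day, with Arntl at 0.54, Npas2 at 0.38, Per2 at -0.34 and Per3 at -0.32 added to Clock. Without βENaC sham male 1 day replicate 1, Clock and Nr1d1 passed, Nr1d1 with a coefficient of 0.31 (adjusted p = 0.000134, limma). Nr1d1 also joined Clock, with coefficients of 0.25 to 0.26, without WT sham male 1 day replicate 1, WT sham female 1 day replicate 4 or 5, or βENaC sham female 1 day replicate 1, 3 or 4.

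Mice of the same group differed widely in several clock genes. The SD within groups was 0.52 for Per1, 0.49 for Arntl and 0.42 for Npas2, each larger than in at least 96.8% of all rows, against a median of 0.16 over all rows. Clock varied least, with an SD of 0.12. This variation was shared between genes, so the 16 group means were subtracted and the deviations of the 79 mice were correlated for 7 pairs, with two-sided permutation tests of 100000 resamples within groups. The p-values were adjusted by Benjamini-Hochberg over the 7 pairs.

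**Figure D4:**
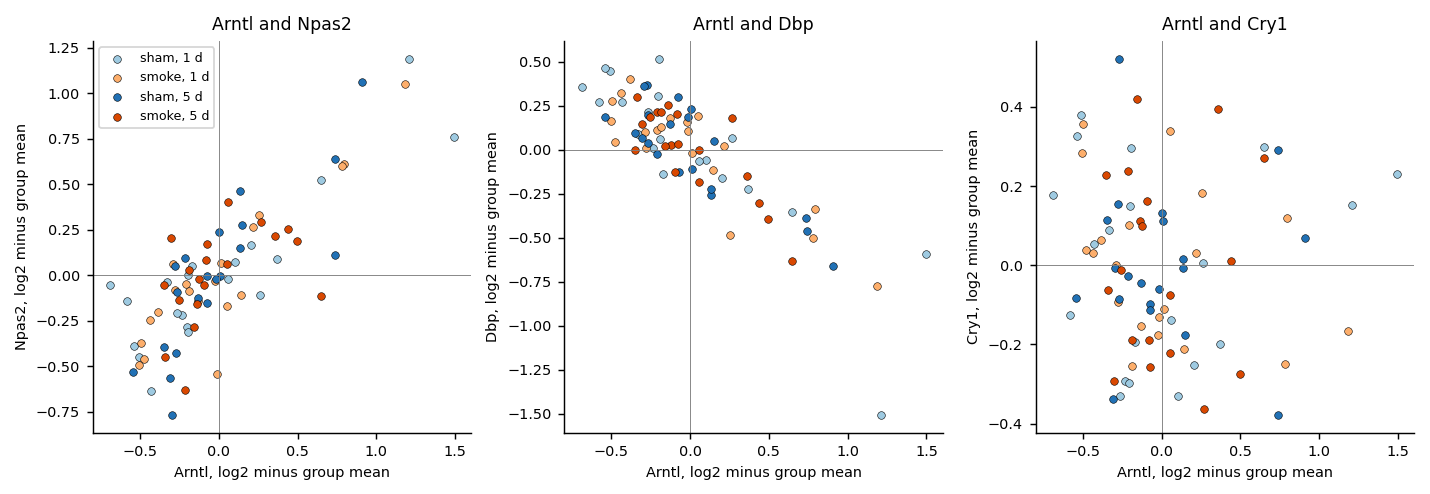
Log2 intensity minus the mean of the mouse's group for Arntl (x axes) against Npas2, Dbp and Cry1 (y axes), with 1 point per mouse (79 mice) coloured by exposure and duration. Npas2 rises and Dbp falls along Arntl (r = 0.81 and -0.85), and the Cry1 points have r = -0.05.

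Arntl and Npas2 deviated together, with Pearson's r of 0.81 (permutation p = 1e-05, the smallest the permutations can give, adjusted p = 1e-05) and Spearman's rho of 0.75 (permutation p = 1e-05, adjusted p = 2e-05). Arntl and Dbp deviated in opposite directions, with r of -0.85 (permutation p = 1e-05, adjusted p = 1e-05) and rho of -0.76 (permutation p = 1e-05, adjusted p = 2e-05). Over all rows, 2 had a larger size of r with Arntl than Npas2 had, namely Per3 (r = -0.88) and Dbp, and 1 than Dbp had, namely Per3. For Nr1d1 322 rows had a larger size of r with Arntl, and for Cry1 25010 rows did. Arntl and Nr1d1 had r of -0.49 (permutation p = 1e-05, adjusted p = 1e-05) and rho of -0.43 (permutation p = 0.00014, adjusted p = 0.000163). For Arntl and Cry1 no relation was detected, with r of -0.05 (permutation p = 0.732, adjusted p = 0.732) and rho of -0.14 (permutation p = 0.275, adjusted p = 0.275).

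Among the repressor and output genes, Dbp and Per3 had r of 0.86 (permutation p = 1e-05, adjusted p = 1e-05) and rho of 0.76 (permutation p = 1e-05, adjusted p = 2e-05), and no row of the table had a larger size of r with Dbp. Dbp and Tef had r of 0.75 (permutation p = 1e-05, adjusted p = 1e-05) and rho of 0.69 (permutation p = 1e-05, adjusted p = 2e-05). Per1 and Per2 had r of 0.53 (permutation p = 1e-05, adjusted p = 1e-05) and rho of 0.50 (permutation p = 2e-05, adjusted p = 2.8e-05). Over all rows, 10 had a larger size of r with Dbp than Tef had, and 157 with Per1 than Per2 had. Without the 2 mice farthest from the median of the first gene, r was 0.77 for Arntl and Npas2, -0.84 for Arntl and Dbp, -0.53 for Arntl and Nr1d1, -0.09 for Arntl and Cry1, 0.80 for Dbp and Per3, 0.63 for Dbp and Tef and 0.47 for Per1 and Per2.

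Within the 4 exposure and duration groups, Arntl and Dbp had r between -0.88 and -0.81. Dbp and Tef had r of 0.90 in sham-exposed and 0.84 in smoke-exposed mice at 1 day, 0.82 in sham-exposed mice at 5 days and 0.18 in smoke-exposed mice at 5 days. For Arntl and Npas2 the 4 values were 0.87, 0.90, 0.82 and 0.46 in the same order, and for Dbp and Per3 they were 0.93, 0.91, 0.86 and 0.52. The smoke-exposed mice at 5 days thus had the lowest value of each of these 3 pairs, and that difference was not tested. In WT smoke female 5 day replicate 2, a mouse that stands apart, Dbp was below and Tef above all others of its group. Dbp was 9.16 against 9.82 to 10.05, and Tef was 8.66 against 8.01 to 8.28. Within the smoke-exposed mice at 5 days, r without that mouse was not computed.

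**Figure D5:**
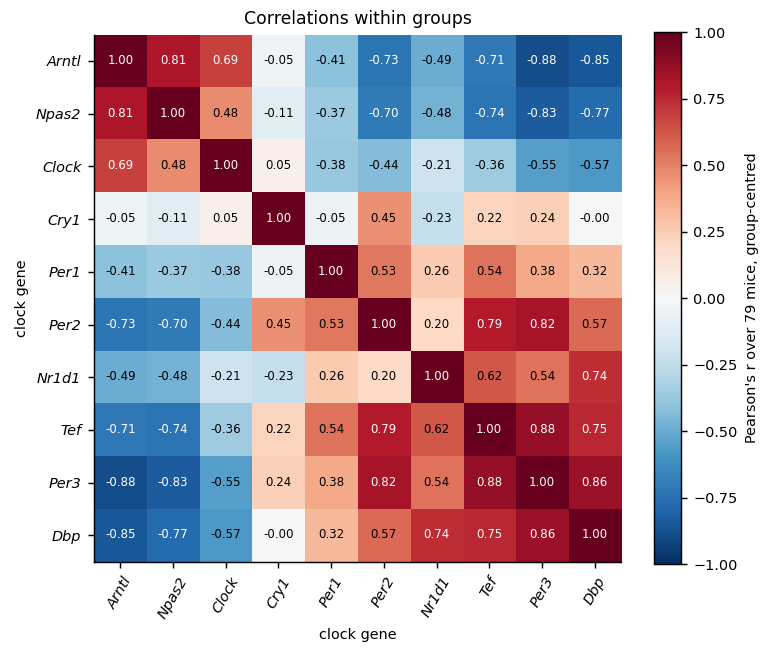
Pearson's r of group-centred log2 intensities for all pairs of the 10 clock genes over 79 mice (both axes list the genes, colour gives r from -1 to 1). Arntl, Npas2 and Clock form a positive block that is negatively related to Per2, Per3, Tef and Dbp, while r between Cry1 and the other genes lies between -0.23 and 0.45.

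By the same measure and with no test, Cry1 had its highest r with Per2 (0.45), and r of -0.05 with Per1 and 0.24 with Per3. Cry1 had the largest exposure coefficient of the 10 genes and an r near 0 with Arntl, Dbp and Clock within groups. Per2, which also rose with smoke, had r of -0.73 with Arntl and 0.82 with Per3.

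Leaving out the 10 clock genes themselves, of which Npas2 had r of 0.79 with Arntl, the genes with symbols whose deposited values were most like Arntl over the 79 mice were Leo1 (r = 0.73), Ikzf4 (0.68), Slc26a9 (0.63), Dtx4 (0.62) and Fam124b (0.62). Those most like Dbp were Nr1d2 (r = 0.77), the paralog of Nr1d1, followed by Angptl2 (0.72), Zfp346 (0.71), Pcolce2 (0.71) and Plxdc2 (0.70). Those most like Cry1 were Cyp1a1 (r = 0.80), Cyp1b1 (0.79), Ces1g (0.78), Nqo1 (0.78) and Aldh3a1 (0.76), among them genes of xenobiotic metabolism that smoke induces. After the group means were subtracted, r between Cry1 and these 5 genes was 0.26 to 0.33. After that step, and again leaving out the 10 clock genes, 2 of the 5 genes named for Arntl stayed among its top 5, 1 for Dbp and 0 for Cry1.

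Among 15 other clock genes, 1 was higher and 1 lower with smoke at 1 day, and 2 were higher and 0 lower at 5 days. Over all rows the shares were 5.03% and 4.43% at 1 day and 3.17% and 3.37% at 5 days, so the counts at 1 day are near the background. Cry2, the paralog of Cry1, rose at 5 days by 0.22 (SE 0.07, adjusted p = 0.0330, limma) and Rora by 0.14 (SE 0.04, adjusted p = 0.0123, limma). At 1 day, Csnk1e, a kinase of PER proteins, rose by 0.12 (SE 0.03, adjusted p = 0.00379, limma), and Fbxl21, an F-box protein that acts on cryptochromes, fell by 0.26 (SE 0.06, adjusted p = 0.00184, limma). The mean level of Fbxl21 was 4.16, below the array medians of 4.44 to 4.55, and signal over background was not analysed here.

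Of 5 rhythmic output genes, 1 was higher at 1 day and 3 at 5 days, against 5.03% and 3.17% of all rows. Usp2 rose at 5 days by 0.51 (SE 0.08, adjusted p = 9.98e-06, limma) and the cell-cycle kinase gene Wee1 by 0.33 (SE 0.06, adjusted p = 0.000131, limma). Nampt, of NAD synthesis, rose by 0.21 at 1 day and 0.32 at 5 days. Between genotypes at 5 days, where 5.33% of all rows were higher and 4.85% lower in WT mice, 5 of the 15 other clock genes passed, with Ciart at 0.47, Cry2 at 0.25 and Csnk1e at 0.10 (higher in WT) and Bhlhe40 at -0.41 and Bhlhe41 at -0.26 (lower in WT). Of the 5 output genes, Usp2 (0.41), Por (0.28) and Wee1 (0.23) were higher in WT mice at 5 days. At 1 day, Bhlhe40 at -0.44 and Csnk1e at 0.13 passed for genotype, as did Por at 0.21, against 5.87% of all rows. Between the sexes, Wee1 passed at 1 day (-0.28), against 9.89% of all rows. From 1 to 5 days of smoke, Fbxl21 (0.28) and Wee1 (0.24) were higher and Csnk1e lower (-0.11), where 7.68% of all rows passed.

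Among 6 glucocorticoid-responsive genes, a list included because Per1 and Per2 are also glucocorticoid targets, Fkbp5 rose with smoke by 0.65 after 1 day (adjusted p = 0.000485, limma) and by 0.76 after 5 days (adjusted p = 0.0116, limma), and Zbtb16 at 1 day (0.80, adjusted p = 0.0211, limma). With smoke, 5.03% of all rows were higher at 1 day and 3.17% at 5 days. The other members did not pass for exposure. For genotype 1 member passed, Sgk1 at 5 days (-0.31), where 4.85% of all rows were lower in WT mice. For sex Tsc22d3 at 1 day (-0.36) and Zbtb16 at 5 days (-1.23) passed, against 9.89% and 0.616% of all rows. The part of these genes in the Per2 result was not tested.

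As checks of the labels, Scnn1b was lower in WT mice by -2.80 at 1 day and -2.61 at 5 days, and Cyp1a1 was higher with smoke by 4.11 and 4.59. In 13 WT smoke-exposed mice the source name gives the other genotype, against title and genotype entry, and the latter were used. Markers of other cells moved with exposure too. Over all rows, 5.03% were higher and 4.43% lower with smoke at 1 day, and 3.17% and 3.37% at 5 days. All 3 red cell markers rose with smoke at 5 days, and their mean log2 level ran from 6.92 to 9.39 in sham-exposed and from 8.42 to 10.18 in smoke-exposed mice. Of 3 monocyte markers, 3 fell at 1 day and 2 at 5 days, with mean levels of 7.43 to 8.28 with sham and 7.10 to 7.95 with smoke at 5 days. Both endothelial markers fell at 5 days, by 0.11 and 0.15, 1 of 3 alveolar type 2 markers fell at each duration, and 1 of 3 neutrophil and 1 of 2 ciliated markers fell at 1 day. Of 2 heart muscle markers 1 rose at 5 days, and none of the club, T cell, B and plasma cell, skeletal muscle and brown fat markers passed for exposure (0 by limma). The alveolar type 2 and club markers, which define lung tissue, had mean levels of at least 12.01 and 12.31 in every exposure and duration group. The part of these cell types in the clock results was not tested.

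In 4 mice the median correlation with the other mice over all rows was 0.978 to 0.983, against at least 0.987 in the remaining mice. They were βENaC sham male 1 day replicate 1, βENaC smoke female 5 day replicate 3, WT smoke female 5 day replicate 2 and βENaC sham male 5 day replicate 3. In each of the 4, Arntl was above and Dbp below all other mice of its group. In the first, Arntl was 7.64 against 5.89 to 6.23 in its group, Dbp was 8.31 against 10.03 to 10.34 and Nr1d1 was 9.16 against 10.24 to 10.51. Other genes moved in these mice too. In βENaC sham male 1 day replicate 1, all 3 neutrophil and all 3 monocyte markers were above the other mice of its group, with S100a8 at 8.78 against 6.22 to 6.96 and Fcgr1 at 7.78 against 6.01 to 6.59, and both club markers were below. In WT smoke female 5 day replicate 2, all 6 glucocorticoid-responsive genes and all 3 neutrophil markers were above the others, with Fkbp5 at 9.60 against 6.18 to 6.79. All 3 monocyte, all 3 red cell and all 3 B and plasma cell markers were below, with Ms4a1 at 5.65 against 7.97 to 8.41. In βENaC sham male 5 day replicate 3, 2 of 3 neutrophil and 2 of 3 monocyte markers were above and both club markers below. Both heart muscle and 2 of 3 B and plasma cell markers were also above in it, with Ucp1 at 8.08 against 3.35 to 5.25. In βENaC smoke female 5 day replicate 3, 1 of 3 neutrophil and 1 of 3 monocyte markers were above and both club markers below. Both brown fat markers were above in the sham-exposed mice of these 4 and below in the smoke-exposed ones, where both heart muscle markers were below too. Their part in the clock values of these mice was not tested. Without these 4 mice, a choice made after the data were seen, the number of the 10 genes that passed for exposure was 3 at 1 day and 7 at 5 days, with Arntl added. For Arntl and Dbp r was then -0.82, for Arntl and Npas2 0.79, for Arntl and Nr1d1 -0.33 and for Dbp and Tef 0.78.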

How the data were processed

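RNA of the right lung of 79 mice was measured on Affymetrix arrays, 1 per mouse. The authors deposited log2 intensities per gene or transcript identifier, made by RMA with quantile normalization and median polish, with adjustments for background, probe sequence and GC, and removed 1 array as mislabelled. The submitters' processing notes name Affymetrix Expression Console 1.4 and Partek 6.6. The values, 1.98 to 13.41, were used as deposited. No depth exists for arrays, so their number limits the precision. Groups came from titles and characteristics, and each replicate is a separate mouse.

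Symbols came from the supplementary tables for 2537 rows and from RefSeq (GRCm38.p6) for 19300, and 9513 rows had none. The clock genes, the comparisons and the gene lists were chosen with earlier results of these data known. Named genes are the members, the fixed lists and, for Arntl, Dbp and Cry1, the 5 most similar genes. The lists are 15 other clock genes, 5 rhythmic outputs, 6 glucocorticoid-responsive genes, 2 checks of the labels and the cell markers. limma 3.58.1 in R 4.3.3 was fitted per duration (genotype, exposure and sex) and over all mice (exposure, duration and their product, without genotype and sex). It was also fitted over sham-exposed or smoke-exposed mice (genotype, sex and duration). P-values were adjusted over 31350 rows. The fit was tested on simulated data.

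Same-numbered mice of different groups had mean correlations of their deviations between -0.006 and 0.03, with single pairs from -0.42 to 0.54. Replicate numbers were therefore not treated as pairs in the main fits, and shared litters or exposure runs were not tested. Alternatives were the ordinary linear model named in the methods, 1 fit over all mice, other normalizations, a filter on dim rows, array weights, a trended robust prior, the replicate block, fold thresholds of 1.3 and 1.5 and each mouse left out. The average over rows of a symbol was not run, since each member has 1 row. The tables were handled in Python 3.11.15. 1 item is not reported here.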

Additional observations from a re-analysis of the deposited data

Results flagged for a closer look

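Cry1 is listed because its exposure effect differed between durations, with an exposure by duration coefficient of 0.49 (adjusted p = 0.0180, limma). The remaining results are single mice far from the others of their group. Of 160 sets of values (10 genes in 16 groups) 19 (11.9%) held such a mouse, where chance gives about 1 in 20. The 19 values came from 9 mice, and 9 of them from the 4 mice with the lowest correlations over all rows. Genes of a group share their mice and were correlated, so the sets are not independent and the share was not tested.

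In βENaC sham male 1 day replicate 1, Arntl was 7.64, Npas2 6.33 (others 4.75 to 4.93), Per2 7.26 (others 7.76 to 7.94), Nr1d1 9.16 and Dbp 8.31. Thus Arntl and Npas2 were the highest and Per2, Nr1d1 and Dbp the lowest of that group. In WT smoke female 5 day replicate 2, Arntl was 6.73 (others 5.78 to 6.00), Per1 10.23 (others 9.19 to 9.41) and Dbp 9.16 (others 9.82 to 10.05). In βENaC smoke female 5 day replicate 3, Per3 was 8.07 (others 8.57 to 8.66).

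In WT smoke female 1 day replicate 5, Arntl was 6.52 (others 5.44 to 5.71), Per1 7.90 (others 9.61 to 9.80), Dbp 9.54 (others 9.89 to 9.99) and Tef 7.64 (others 8.14 to 8.27). In WT sham male 5 day replicate 2, Dbp was 9.73 (others 10.16 to 10.32) and Tef 7.63 (others 7.98 to 8.07). Arntl was 7.76 in WT sham female 1 day replicate 3 (others 5.69 to 6.10). Npas2 was 6.21 in βENaC smoke male 1 day replicate 2 (others 4.67 to 5.06), and Per1 was 7.57 in βENaC smoke female 1 day replicate 5 (others 9.19 to 9.43). Per3 was 8.19 in βENaC sham female 5 day replicate 2 (others 7.99 to 8.02).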

How the results depend on the processing

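Of 260 values of 26 coefficients under 10 alternatives that kept or replaced the fit without leaving out single mice, 247 kept their direction and side of the threshold. With the replicate block, the number of the 10 genes passing for exposure was 2 at 1 day, since Clock was lost, and 7 at 5 days, since Arntl passed at -0.35 (adjusted p = 0.0330), and the block changed no other call. Arntl at 5 days also passed without dim rows (adjusted p = 0.0457) and with array weights (adjusted p = 0.0198). Its 1-day coefficient turned to 0.0319 with array weights and 0.0340 without the 4 mice that stand apart, and ran from -0.0987 to 0.0676 with each mouse left out, as that of Npas2 did from -0.0235 to 0.102. The counts for sex at 1 day were 4 in 1 fit over all mice, 2 without dim rows, with array weights and without the 4 mice, and 1 to 5 with each mouse left out. The counts for exposure by duration were 3 (Cry1, Nr1d1 and Clock) in 1 fit over all mice and with array weights, 2 without the 4 mice and 1 to 2 with each mouse left out. Per3 for genotype at 5 days was lost in 1 fit over all mice (adjusted p = 0.0966). The count for genotype at 5 days was 3 to 5 with each mouse left out. A 1.3-fold threshold gave 1 gene for exposure at 1 day, 1 for genotype at 5 days and 0 for sex at 1 day, and a 1.5-fold threshold gave 0, 0 and 0, with 2 for exposure at 5 days and 0 for exposure by duration. These counts are lower by construction. The cause of the other changes was not tested. The correlation of Arntl and Cry1 turned to 0.0927 within sham-exposed mice at 1 day and 0.0111 within smoke-exposed mice at 5 days. With each mouse left out, 6 to 7 genes passed for exposure at 5 days and 2 to 3 at 1 day.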
